A study of Mus musculus with 13 samples.

Results

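Mitophagy removes damaged or surplus mitochondria by enclosing them in autophagosomes. Transcripts of 9 genes that tie mitochondria to the autophagosome were followed in developing thymocytes, out of 47937 genes in the table of counts. They include Pink1, the kinase that marks depolarised mitochondria, and Bnip3, Bnip3l (NIX) and Fundc1, receptors in the outer mitochondrial membrane. Sqstm1 (p62) and Optn are adaptors that bind ubiquitin on the cargo, and Calcoco2 (NDP52) is listed with them. Map1lc3b and Gabarapl1 are members of the ATG8 family on the autophagosome membrane that receptors and adaptors bind. The genes were listed by name, and each symbol matched 1 gene of the table.

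RNA was measured in thymocytes sorted at DN3 and DN4, the CD4-CD8- stages on either side of β-selection, from C57BL/6 mice 6 weeks old. The controls were WT;Lck-Cre+ mice (Wt), and the others were Opa1fl/fl;Lck-Cre+ mice (labelled OPA1 KO, here Opa1fl/fl), whose floxed Opa1 is the target of the recombinase. Both genotypes carried Cre under the Lck promoter, which is active in the T lineage, so no group lacks Cre. The 13 libraries came from 7 mice. Both stages were taken from the Opa1fl/fl mice KO45, KO49 and KO51 and from the Wt mice WT05, WT46 and WT48, whereas WT40 was sampled at DN4 alone. The groups thus held 3 Wt DN3, 3 Opa1fl/fl DN3, 4 Wt DN4 and 3 Opa1fl/fl DN4 libraries. Each library is bulk RNA, in which fewer cells of a type and less RNA per cell cannot be told apart.

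Libraries held 5926848 to 14148661 counts. The DN3 library of mouse WT05 stood apart: 41.5% of its counts fell on 13 genes, mostly overlapping ribosomal RNA, against 0.443% to 1.75% elsewhere, and 3464709 of its counts lay on other genes. The 13 genes were picked for shares far higher in this library than in any other, so that contrast is partly set by the choice. The stage, genotype and interaction values of the genes tested among the 9 that rest on it are also given without it. Opa1 itself was at 91.1 to 111.8 CPM in Wt and 88.6 to 93.8 CPM in Opa1fl/fl DN3 libraries, and at 85.1 to 93.8 and 77.0 to 87.9 CPM in DN4. The floxed exons are not counted apart, so these counts do not check the deletion. The summed level of 9 DN3 markers was 3828 to 5110 CPM in DN3 and 1123 to 2724 CPM in DN4, and that of 7 markers of DN4 and later CD4 or CD8 stages was 141 to 255 CPM in DN3 and 633 to 3395 CPM in DN4. Markers of other cells moved with the stage. The 7 B cell markers summed to 285 to 426 CPM in DN3 and 886 to 4983 CPM in DN4, and all 7 passed the test as higher in DN4 in each genotype. NK and innate lymphoid markers summed to 242 to 294 CPM in Wt DN3 and 483 to 626 CPM in Wt DN4, without overlap, and to 283 to 327 and 314 to 452 CPM in Opa1fl/fl. Myeloid markers did not overlap in Opa1fl/fl, at 23.9 to 27.0 CPM in DN3 and 16.6 to 21.1 CPM in DN4, and were at 24.3 to 32.8 and 15.3 to 24.4 CPM in Wt. Erythroid markers did not overlap in Opa1fl/fl either, at 0.20 to 0.74 CPM in DN3 and 1.29 to 1.57 CPM in DN4, and were at 0.0 to 2.53 and 1.56 to 6.29 CPM in Wt. The sums of gamma delta T and of stromal markers overlapped between the stages in both genotypes. Gamma delta T markers were at 607 to 1027 CPM in DN3 and 586 to 1737 CPM in DN4, and stromal markers at 112 to 190 and 119 to 246 CPM. Of 4 gamma delta T markers tested singly, 4 were called in Wt, 3 higher and 1 lower in DN4, beside 22.9% of all genes. In Opa1fl/fl 2 of 4 were called, 1 higher and 1 lower, beside 18.6%. The part of these markers in the stage values below was not tested. Defining markers Klrb1c, Klrk1 and Ncr1 of NK cells were at 0 in every DN3 library.

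PINK1 is normally imported into healthy mitochondria and degraded; on depolarised mitochondria it accumulates and phosphorylates ubiquitin, which the adaptors then read. BNIP3, NIX and FUNDC1 instead bind ATG8 proteins directly, and BNIP3 and NIX are known for their response to hypoxia. Stretches of DNA before 3 of the genes are shown, because the values below turn on Gabarapl1 and Map1lc3b and because Bnip3 is a textbook hypoxia target. Each runs 5′ to 3′ on the gene's own strand from 250 bases before the RefSeq start to the last base before the annotated gene (GRCm38.p6): chr6:129532942-129533159, plus strand, for Gabarapl1, chr8:121590188-121590360, plus strand, for Map1lc3b, and chr7:138909520-138909756, minus strand, for Bnip3. Capitals mark the forkhead-type ATAAACA in Gabarapl1, and in Bnip3 the CACGTG E-box, which holds the hypoxia response core ACGTG on both strands, and CACCTG, which is CAGGTG on the other strand.
Gabarapl1: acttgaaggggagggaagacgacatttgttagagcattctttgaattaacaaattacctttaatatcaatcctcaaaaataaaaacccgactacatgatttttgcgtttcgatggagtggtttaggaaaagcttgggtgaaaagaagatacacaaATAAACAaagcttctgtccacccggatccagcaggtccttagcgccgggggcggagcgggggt
Map1lc3b: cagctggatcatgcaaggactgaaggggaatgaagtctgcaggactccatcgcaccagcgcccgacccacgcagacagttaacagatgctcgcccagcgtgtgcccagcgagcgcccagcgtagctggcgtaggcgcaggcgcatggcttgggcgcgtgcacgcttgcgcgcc
Bnip3: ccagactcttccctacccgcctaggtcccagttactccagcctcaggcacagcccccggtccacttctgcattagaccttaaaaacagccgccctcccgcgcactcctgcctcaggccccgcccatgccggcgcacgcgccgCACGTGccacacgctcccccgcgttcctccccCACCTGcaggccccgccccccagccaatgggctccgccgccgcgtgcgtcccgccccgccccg

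The RefSeq promoter table held 7 of the 9 genes, without Bnip3l and Calcoco2. Motifs were searched on both strands from 250 bases before to 50 after the start. ACGTG lay in 1 of the 7 promoters (Bnip3) and in 19.6% of all 32851 promoters, and CACGTG, which overlaps it, in the same 1 and in 7.15%. CAGGTG, an E-box bound by the E proteins of lymphocytes, lay in 4 (Pink1, Bnip3, Optn and Map1lc3b) against 20.2% of all. ATAAACA lay in 1 (Gabarapl1) against 4.60%; this spelling was added after the sequence was read, and the forkhead motif GTAAACA, in 3.65% of all, lay in 0. The antioxidant response core TGACNNNGC lay in 1 (Map1lc3b) against 12.4%, and the stress motif TGATGNAA in 0 against 3.97%. A match describes the letters only.

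Compared per length, as CPM per kilobase of annotated exon over all 13 libraries, Sqstm1 had the highest level, 35.3 ± 5.43 (SD, n = 13). Pink1 followed at 29.5 ± 5.81 and Bnip3l at 22.7 ± 3.43, and the ranges of these 3 genes overlapped. Map1lc3b at 16.0 ± 2.84, Fundc1 at 15.1 ± 1.60 and Gabarapl1 at 12.1 ± 3.90 formed the next levels, with ranges that overlapped among them. The range of Map1lc3b also overlapped those of Bnip3l and Pink1, and the range of Gabarapl1 that of Bnip3l. Their order changed with the stage: by group means Map1lc3b was the highest of the 3 in both DN4 groups (18.1 in Wt and 17.8 in Opa1fl/fl) and the lowest in both DN3 groups (13.6 and 13.9). Bnip3 was far lower, at 2.03 ± 0.611, below every library's value of the 6 genes above it. Optn reached only 0.309 ± 0.302, and Calcoco2 had 0 counts in each of the 13 libraries, where 3 counts, the limit that a count of 0 allows, would be 0.207 to 0.878 CPM. These levels are a description, and counting error alone is covered by that limit. The length used was that of all annotated exons together, 7517 bases for Map1lc3b and 1621 to 3859 for the others, and the order rests on it. In plain CPM the group means of Map1lc3b, 103 to 136, lay beside those of Sqstm1, 104 to 133.

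**Figure D1:**
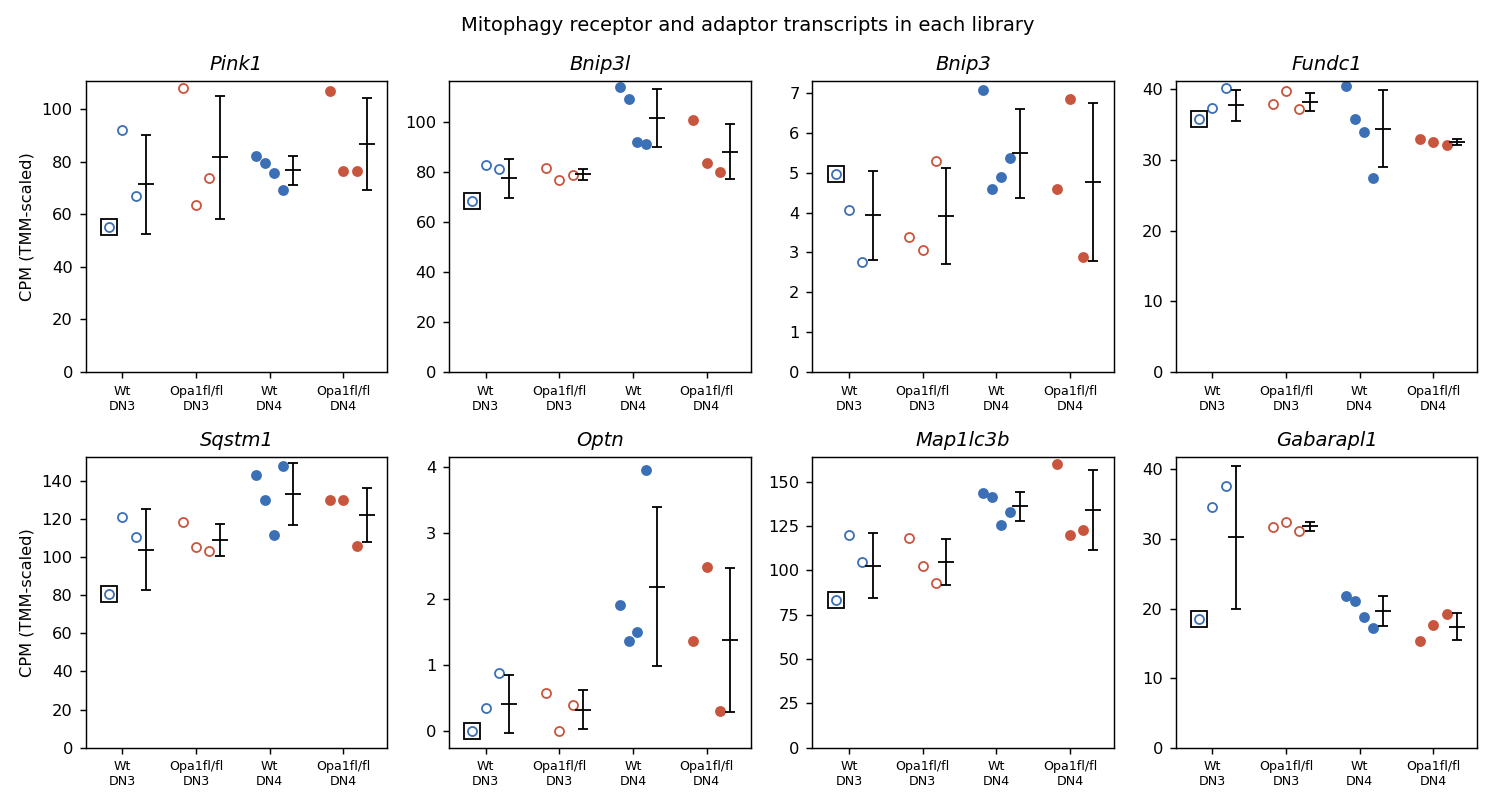
Level of 8 genes in each of the 13 libraries, in CPM on TMM-scaled library sizes; points are libraries (open DN3, filled DN4, blue Wt, red Opa1fl/fl), the bar beside each group is its mean ± SD, and the square marks the DN3 library of mouse WT05. Gabarapl1 lies at 31.2 to 37.7 CPM in 5 of the 6 DN3 libraries and at 15.3 to 21.7 CPM in all 7 DN4 libraries. Calcoco2, at 0 throughout, is not drawn.

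Gabarapl1 (ENSMUSG00000030161, chr6:129533160-129542346, plus strand), an ATG8 family member of the GABARAP branch, was the gene that changed most clearly between the stages. In Opa1fl/fl mice KO45, KO49 and KO51 it was at 31.7, 32.5 and 31.2 CPM in DN3 and at 15.3, 17.6 and 19.2 CPM in DN4. The stages did not overlap there. DN4 was lower by a fitted ratio of 0.537, a log2 fold change of -0.90 (SE 0.146, 95% interval -1.23 to -0.56), with an adjusted p of 0.0053. In Wt mice WT05, WT46 and WT48 it was at 18.4, 34.6 and 37.7 CPM in DN3, and in WT05, WT40, WT46 and WT48 at 21.7, 21.1, 18.8 and 17.1 CPM in DN4. The overlap between the Wt stages came from the DN3 library of WT05 alone, whose Gabarapl1 value rests on 63 counts. With it the log2 fold change in Wt was -0.66 (SE 0.232, 95% interval -1.19 to -0.13) and did not pass (adjusted p = 0.0739). Without it the value was -0.91 with an adjusted p of 0.0043, and with all 13 libraries in one fit -0.64 with an adjusted p of 0.030. Within mice, the DN4 library was lower than the DN3 library of the same mouse in 5 of 6 mice, by -1.14 to -0.70 on the log2 scale, and was 0.24 higher in WT05. The 3 DN4 libraries with the highest summed B cell markers, WT48, KO49 and WT05, held 17.1, 17.6 and 21.7 CPM of Gabarapl1, and the 3 with the lowest, KO51, WT40 and WT46, held 19.2, 21.1 and 18.8 CPM. Values with the B cell marker level as a covariate, here and below, come from one fit of all 13 libraries. For Gabarapl1 that fit gave -0.87 in Opa1fl/fl without the covariate (adjusted p = 0.0117) and -0.80 with it (adjusted p = 0.223), and in Wt -0.57 with it (adjusted p = 0.449), so the calls of that fit were lost and the directions were not. No annotated 50-base stretch of Gabarapl1 was shared with another gene.

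Among the 9 genes, Gabarapl1 was thus the only one called between the stages in Opa1fl/fl mice (1 of 7 tested), where 18.6% of 12580 genes tested were called and 7.34% were called lower in DN4. In Wt mice 0 of 8 tested were called, against 22.9% of 12691 genes, 13.4% higher and 9.43% lower. At an unadjusted p under 0.05, 4 of the 8 passed in Wt (Optn, Bnip3l, Gabarapl1 and Map1lc3b, adjusted p between 0.0625 and 0.0786), beside 35.5% of all genes, and 2 of the 7 in Opa1fl/fl (Gabarapl1 and Fundc1), beside 33.0%. DESeq2's Wald test called 3 in Wt (Bnip3l, Map1lc3b and Optn), each with an adjusted p of 0.035 to 0.049, beside 23.4% of all genes given an adjusted p, and 1 in Opa1fl/fl (Gabarapl1), beside 19.2%. The fit with the mouse as a block, which in Wt leaves out WT40 because that mouse has no DN3 library, called 1 of 8 in Wt (Optn), beside 18.7% of all genes, and 2 of 7 in Opa1fl/fl (Gabarapl1 and Map1lc3b), beside 35.8%. A single fit of all 13 libraries called 2 in Wt (Bnip3l and Gabarapl1), beside 26.6%, and 1 in Opa1fl/fl (Gabarapl1), beside 20.3%. The stages did not overlap for 3 genes in Wt (Bnip3l, Optn and Map1lc3b) and 3 in Opa1fl/fl (Fundc1, Gabarapl1 and Map1lc3b), beside 35.0% and 38.7% of all genes tested. The median log2 fold change of the genes tested was 0.34 in Wt and 0.13 in Opa1fl/fl, beside -0.03 and -0.02 over all genes. These shares do not set the 9 genes apart from other genes. Optn passed edgeR's filter in Wt through its DN4 counts alone, so its place among these genes is no support for a stage difference. Without the DN3 library of WT05 the Wt log2 fold changes were 0.24 for Map1lc3b (adjusted p = 0.118), 0.28 for Bnip3l (adjusted p = 0.135), 0.17 for Sqstm1, 1.79 for Optn (adjusted p = 0.087), 0.64 for Bnip3, -0.20 for Fundc1 and -0.09 for Pink1, and only Gabarapl1 was called.

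Map1lc3b (ENSMUSG00000031812, chr8:121590361-121598760, plus strand) encodes LC3B, the ATG8 protein most used to mark autophagosomes. It ran the other way. In Opa1fl/fl mice KO45, KO49 and KO51 it was at 118, 103 and 92.7 CPM in DN3 and at 160, 120 and 123 CPM in DN4. In Wt mice WT05, WT46 and WT48 it was at 83.4, 120 and 104 CPM in DN3, and WT05, WT40, WT46 and WT48 held 144, 141, 126 and 133 CPM in DN4. Neither pair of stages overlapped, but the gaps were small. The log2 fold change was 0.38 in Wt (SE 0.134, 95% interval 0.07 to 0.68, adjusted p = 0.0786) and 0.33 in Opa1fl/fl (SE 0.153, 95% interval -0.02 to 0.68, adjusted p = 0.174). The fit with the mouse as a block called it in Opa1fl/fl, at 0.33 with an adjusted p of 0.012, and not in Wt (adjusted p = 0.200). In all 6 mice the DN4 library held more than the DN3 library, by 0.07 to 0.79 on the log2 scale. Map1lc3b shares 5.77% of its 50-base stretches with other genes, largely Gm6055, which had 2 to 16 counts, against 285 to 2238 for Map1lc3b.

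Since the counts of both genes come from the same library, their ratio does not depend on the scaling. The ratio was formed after the values were seen, is not corrected for length, and is given without a test. Map1lc3b had 2.77 to 4.52 counts for each Gabarapl1 count in the 6 DN3 libraries and 6.38 to 10.5 in the 7 DN4 libraries. The stages did not overlap. Even mouse WT05, whose Gabarapl1 CPM did not fall, went from 4.52 to 6.62. The group means were 3.59 ± 0.881 (SD, n = 3) in Wt DN3, 3.29 ± 0.392 (n = 3) in Opa1fl/fl DN3, 6.95 ± 0.550 (n = 4) in Wt DN4 and 7.87 ± 2.25 (n = 3) in Opa1fl/fl DN4.

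**Figure D2:**
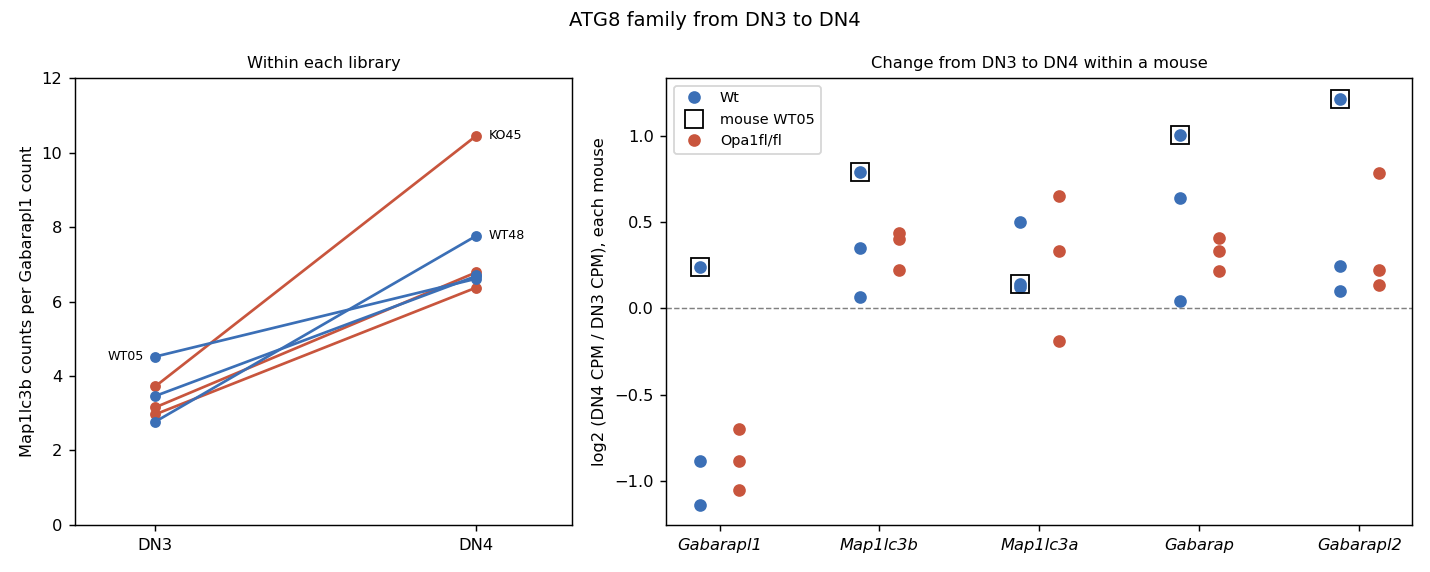
Left, counts of Map1lc3b per count of Gabarapl1 in each library, with lines joining the 2 libraries of a mouse (blue Wt, red Opa1fl/fl). Right, log2 ratio of DN4 to DN3 CPM within each of the 6 mice with both stages, for the 5 ATG8 family genes, with mouse WT05 squared. The ratio is 2.77 to 4.52 in DN3 and 6.38 to 10.5 in DN4, and Gabarapl1 is the gene below 0 in 5 of 6 mice.

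The other 3 ATG8 family genes, Map1lc3a, Gabarap and Gabarapl2, lay on the side of Map1lc3b without passing the test. Their log2 fold changes were 0.18, 0.46 and 0.44 in Wt (adjusted p = 0.672, 0.0987 and 0.141) and 0.24, 0.30 and 0.36 in Opa1fl/fl (adjusted p = 0.555, 0.122 and 0.136). Gabarap and Gabarapl2 were higher in DN4 in 6 of 6 mice, and Map1lc3a in 5 of 6. The fit with the mouse as a block called Gabarap in Opa1fl/fl (0.29, adjusted p = 0.0249). One fit of all 13 libraries called Gabarap in Wt (0.48, adjusted p = 0.0351) and not in Opa1fl/fl (0.32, adjusted p = 0.190). With the B cell marker level as a covariate, Map1lc3a, Gabarap and Gabarapl2 were at 0.03, -0.03 and 0.09 in Wt and at 0.12, -0.15 and 0.04 in Opa1fl/fl.

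Bnip3l (ENSMUSG00000022051, chr14:66985239-67008877, minus strand) encodes NIX, the receptor that clears mitochondria from maturing red cells. In Wt mice WT05, WT46 and WT48 it was at 68.5, 82.6 and 81.2 CPM in DN3, and in WT05, WT40, WT46 and WT48 at 114, 109, 92.0 and 91.0 CPM in DN4. The Wt stages did not overlap, and the log2 fold change was 0.36 (SE 0.125, 95% interval 0.08 to 0.65, adjusted p = 0.0708). It was 0.39 with an adjusted p of 0.030 when all 13 libraries were fitted together. In Opa1fl/fl mice KO45, KO49 and KO51 it was at 81.4, 76.8 and 78.8 CPM in DN3 and at 101, 83.7 and 79.9 CPM in DN4. Those stages overlapped, with a log2 fold change of 0.13 (95% interval -0.14 to 0.40, adjusted p = 0.473). Within mice, DN4 was higher in 6 of 6, by 0.02 to 0.74 on the log2 scale. Of its 50-base stretches 20.8% are shared with the pseudogene Bnip3l-ps, which had 1 to 9 counts against 234 to 1408 for Bnip3l.

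Bnip3 (ENSMUSG00000078566, chr7:138890836-138909519, minus strand), the close relative of NIX, was counted 17 to 99 times per library. It ranged over 2.75 to 4.97 CPM in Wt DN3 and 3.06 to 5.30 CPM in Opa1fl/fl DN3. In DN4 it ranged over 4.59 to 7.08 and 2.89 to 6.84 CPM. All 4 groups overlapped. The log2 fold change between the stages was 0.48 in Wt (95% interval -0.20 to 1.17) and 0.27 in Opa1fl/fl (95% interval -0.62 to 1.16). Within mice, DN4 was higher than DN3 in 5 of 6, by 0.26 to 1.16 on the log2 scale, and lower in KO51 (-0.87). With the B cell marker level as a covariate the stage values turned to -0.31 in Wt and -0.54 in Opa1fl/fl. Pseudogenes share 16.5% of its 50-base stretches, and those counted had 0 to 3 counts.

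Fundc1 (ENSMUSG00000025040, chrX:17556564-17572325, minus strand), a receptor regulated by phosphorylation, varied least. In Opa1fl/fl mice KO45, KO49 and KO51 it was at 37.9, 39.7 and 37.2 CPM in DN3 and at 33.0, 32.5 and 32.1 CPM in DN4. These stages did not overlap, with a log2 fold change of -0.26 (SE 0.109, 95% interval -0.51 to -0.01, adjusted p = 0.143). In Wt it ranged over 35.7 to 40.1 CPM in DN3 and 27.4 to 40.5 CPM in DN4, and the log2 fold change was -0.16 (95% interval -0.50 to 0.18, adjusted p = 0.486). Wt DN4 spanned the whole range of the other groups. Fundc1 is X-linked, and Xist was counted 0 to 2 times in the libraries of WT40 and WT46 and at least 10672 times in those of the other 5 mice. The part of this difference in the Wt values was not tested; WT40 and WT46 held 35.8 and 33.9 CPM of Fundc1 in DN4, between the 40.5 of WT05 and the 27.4 of WT48.

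Pink1 (ENSMUSG00000028756, chr4:138313409-138326307, minus strand) showed no stage difference beyond its spread. In Opa1fl/fl mice KO45, KO49 and KO51 it was at 108, 63.3 and 73.7 CPM in DN3 and at 107, 76.5 and 76.5 CPM in DN4. Mouse KO45 was the highest of its group at both stages. In Wt it was at 55.0, 92.0 and 67.1 CPM in DN3 (WT05, WT46 and WT48) and at 69.4 to 82.1 CPM in DN4. The log2 fold change was 0.07 in Wt (95% interval -0.32 to 0.46, adjusted p = 0.816) and 0.05 in Opa1fl/fl (95% interval -0.47 to 0.57, adjusted p = 0.900).

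Sqstm1 (ENSMUSG00000015837, chr11:50199366-50210827, minus strand) encodes p62, an adaptor that is itself degraded by autophagy. It ranged over 80.5 to 121 CPM in Wt DN3, 112 to 148 CPM in Wt DN4, 103 to 119 CPM in Opa1fl/fl DN3 and 106 to 130 CPM in Opa1fl/fl DN4. The log2 fold change was 0.33 in Wt (95% interval -0.04 to 0.70, adjusted p = 0.190) and 0.14 in Opa1fl/fl (95% interval -0.15 to 0.43, adjusted p = 0.489). With the B cell marker level as a covariate the values were -0.10 and -0.26. Mrnip, on the other strand, overlaps Sqstm1 and had 24 to 121 counts. The strand setting of the counting is not given in the sources used here, so reads of the overlap may belong to either gene.

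Optn (ENSMUSG00000026672, chr2:5020642-5064051, minus strand), an adaptor phosphorylated by TBK1, was barely counted in DN3. It had 0 to 8 counts in the 6 DN3 libraries and 3 to 39 in the 7 DN4 libraries. In Wt it was at 0.0, 0.354 and 0.881 CPM in DN3 (WT05, WT46 and WT48) and at 1.92, 1.37, 1.50 and 3.96 CPM in DN4 (WT05, WT40, WT46 and WT48). The Wt stages did not overlap, and the log2 fold change was 2.12 (SE 0.703, 95% interval 0.51 to 3.72, adjusted p = 0.0625). The fit with the mouse as a block called it (2.40, adjusted p = 0.037). Its Wt counts were 0 to 8 in DN3 and 14 to 39 in DN4, so it passed edgeR's filter in Wt through DN4 alone. The Wt values and calls of Optn are therefore a description and no support for a stage difference. In Opa1fl/fl it was at 0.577, 0.0 and 0.392 CPM in DN3 and at 1.36, 2.49 and 0.299 CPM in DN4 (KO45, KO49 and KO51), too few counts to pass the filter, and the stages overlapped. Its DN4 levels ran close to those of the B cell markers. The library highest in both was WT48, with 3.96 CPM of Optn and 4983 CPM of B cell markers, then KO49 with 2.49 and 3182 CPM, and WT05 with 1.92 and 2807 CPM. KO51 was lowest in both, with 0.299 and 886 CPM, and the other 3 libraries, KO45, WT40 and WT46, held 1.36, 1.37 and 1.50 CPM of Optn with 2091, 1066 and 1203 CPM of B cell markers. With the B cell marker level as a covariate the Wt log2 fold change of Optn was -0.23 (adjusted p = 0.959) in place of 2.12. Calcoco2 (ENSMUSG00000006056, chr11:96099326-96111964, minus strand) was at 0 in all libraries and was not tested.

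**Figure D3:**
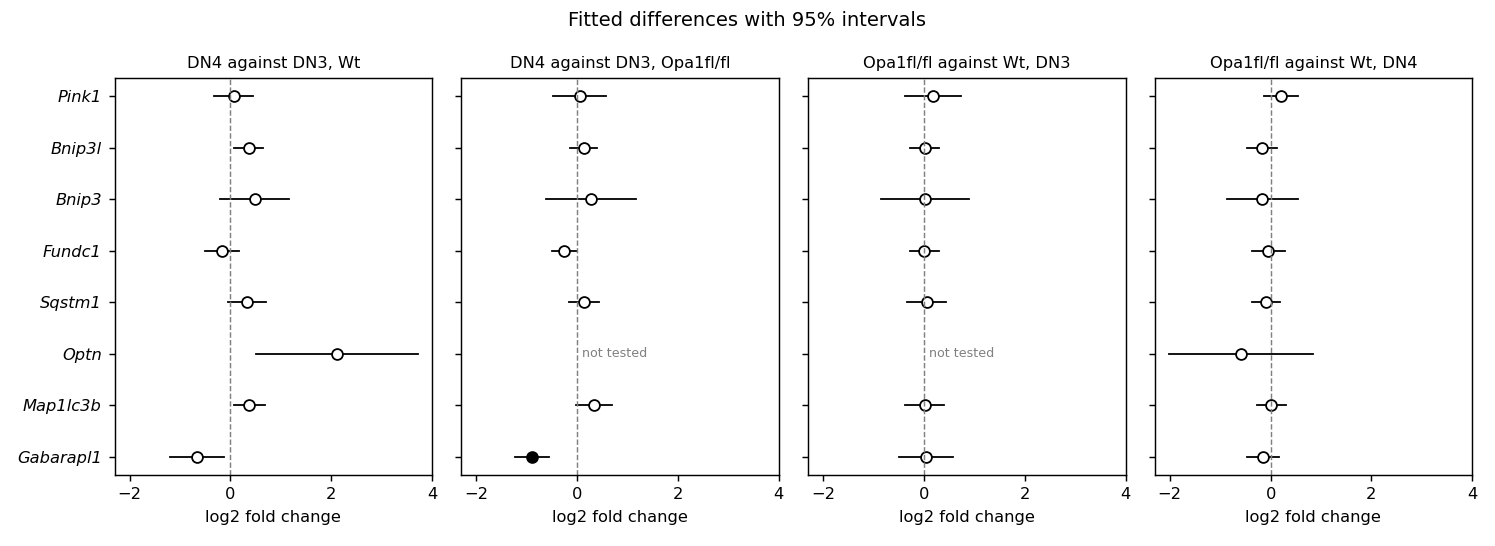
Fitted log2 fold changes with 95% intervals for 8 genes in the stage and genotype comparisons; a filled point passed an adjusted p of 0.05. The only filled point is Gabarapl1 between the stages in Opa1fl/fl mice, at -0.90, and the genotype intervals all cross 0.

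The genotypes were compared within each stage, the question being whether targeting Opa1, whose product holds the inner mitochondrial membrane in shape, came with a change in mitophagy transcripts. In DN3, 0 of 7 genes tested were called, beside 0.0% of 12105 genes (edgeR, 168 genes or 1.39% at an unadjusted p under 0.05, of which 0 were among these genes). In DN4, 0 of 8 were called, beside 0.0535% of 13084 genes, and 0 of the 8 passed an unadjusted p under 0.05, beside 5.46%. DESeq2's Wald test also called 0 of them at each stage, beside 0.00479% of genes given an adjusted p in DN3 and 0.392% in DN4. The 7 genes called over all genes in DN4 became 0 to 8 with a library left out. The genotypes overlapped for every one of them at both stages, while 6.44% of all genes in DN3 and 7.08% in DN4 did not overlap. In DN3 the log2 fold changes were 0.01 to 0.18, the largest being Pink1 at 0.18 (95% interval -0.38 to 0.74). Intervals reached from -0.28 to 0.30 for Fundc1, from -0.27 to 0.31 for Bnip3l, from -0.37 to 0.40 for Map1lc3b, from -0.33 to 0.44 for Sqstm1, from -0.50 to 0.58 for Gabarapl1 and from -0.85 to 0.89 for Bnip3. Without the WT05 library Gabarapl1 was at -0.18, Map1lc3b at -0.10, Sqstm1 at -0.09, Bnip3l at -0.05 and Fundc1 at -0.02, all turned in sign, while Pink1 was at 0.04 and Bnip3 at 0.19, and 0 were called. In DN4, Pink1 was at 0.21 (95% interval -0.12 to 0.55), Map1lc3b at 0.02 (-0.28 to 0.31), Fundc1 at -0.05 (-0.37 to 0.28) and Sqstm1 at -0.09 (-0.37 to 0.19). Gabarapl1 was at -0.15 (-0.47 to 0.17), Bnip3 at -0.16 (-0.87 to 0.54), Bnip3l at -0.17 (-0.47 to 0.13) and Optn at -0.58 (-2.02 to 0.85). The adjusted p was 1.0 for all 7 in DN3 and 0.910 to 0.994 in DN4. These intervals leave room for changes of the stated size, and small changes were not detectable with 3 or 4 mice a group. Xist was counted 0 to 2 times in the libraries of Wt mice WT40 and WT46 and at least 10672 times in every Opa1fl/fl library. The part of this imbalance in the genotype, interaction and Wt stage values, here and below, was not tested.

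The test of the difference between the stage changes, over all 13 libraries, called 0 of 8 genes, beside 0.0% of 13361 genes and 3.59% at an unadjusted p under 0.05, of which 0 were among the 8. The interaction terms were -0.23 to -0.01 on the log2 scale, with an adjusted p of 1.0 each. For Gabarapl1 the term was -0.23 (95% interval -0.86 to 0.40), and 0.02 without the DN3 library of WT05. Leaving that library out also turned the terms of Pink1 (0.15), Optn (0.16) and Map1lc3b (0.10), while those of Bnip3 (-0.37), Bnip3l (-0.14), Fundc1 (-0.05) and Sqstm1 (-0.02) stayed negative, and 0 were called. The call of Gabarapl1 in one genotype and not in the other was therefore not shown to be a difference between them.

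Genes around the 9 were described from lists of 127 pathway genes. Between the stages 22 of 122 tested were called in Wt (13 higher, 9 lower in DN4) and 20 of 122 in Opa1fl/fl (12 higher, 8 lower), shares of the same order as the 22.9% and 18.6% of all genes. Between the genotypes 0 of 120 were called in DN3 and 0 of 124 in DN4, and the interaction called 0 of 123. With the B cell marker level as a covariate 3 of 123 list genes were called in Wt and 8 of 123 in Opa1fl/fl, beside 6.96% and 6.89% of all genes. The same fit of 13 libraries without the covariate called 26 and 22, beside 26.6% and 20.3%. The fit with the mouse as a block called 17 of 122 in Wt and 45 of 122 in Opa1fl/fl, beside 18.7% and 35.8% of all genes, and leaving out WT40 without the block called 16 in Wt. Calls of single lists under these fits are to be read against those shares.

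**Figure D4:**
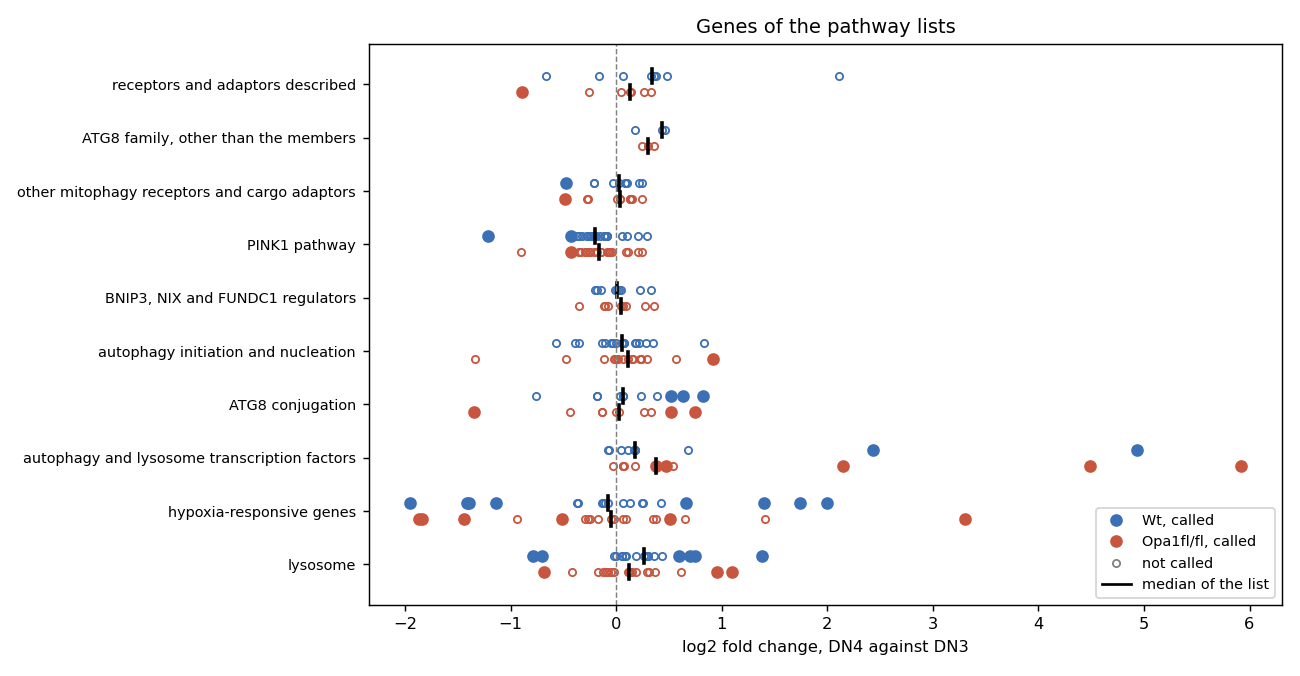
Fitted log2 fold changes from DN3 to DN4 for each gene of the pathway lists, Wt in blue above Opa1fl/fl in red; filled points passed an adjusted p of 0.05 and the black line is the median of the list. Called genes are 22 of 122 in Wt and 20 of 122 in Opa1fl/fl, and Tfeb and Foxo1 stand far right in both.

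Of 11 other receptors and cargo adaptors tested, 1 was called in each genotype, Nipsnap1, a matrix protein that marks damaged mitochondria for autophagy. It fell by 0.47 on the log2 scale in Wt (adjusted p = 0.0142), from 55.0 ± 2.86 (SD, n = 3) to 40.4 ± 2.56 CPM (n = 4), and by 0.48 in Opa1fl/fl (adjusted p = 0.0309). The Wt call was lost in the block fit, which also leaves out WT40 (adjusted p = 0.069, against 0.0385 without WT40 and with no block). That fit gave 0 calls in Wt and 3 in Opa1fl/fl. Both calls were lost with the B cell marker level as a covariate (-0.34 and -0.35). The median of that list was 0.03 and 0.04. Of 22 genes of the PINK1 pathway, 2 were called in Wt, both lower in DN4. Hk2, hexokinase 2, fell by 1.21 (adjusted p = 0.0041) and Tomm40, the import pore of the outer membrane, fell by 0.43 (adjusted p = 0.0329). In Opa1fl/fl 1 was called, the import receptor Tomm70a (-0.43, adjusted p = 0.038), named after its value was seen. With the mouse as a block Wt kept Hk2 and lost Tomm40 (adjusted p = 0.084, and 0.073 without WT40 and with no block), and 7 were called in Opa1fl/fl, all lower, among them Hk2 (-0.91, adjusted p = 0.00082) and Tomm40 (-0.38, adjusted p = 0.0137). Under the B cell covariate 0 of the 22 were called (edgeR): in Wt Hk2 was at -0.75 (adjusted p = 0.435) and Tomm40 at -0.12 (adjusted p = 0.904), and in Opa1fl/fl Tomm70a was at -0.11. In each genotype 18 of the 22 had a negative fold change, with medians of -0.20 and -0.16. Of 9 regulators of BNIP3, NIX and FUNDC1, 0 were called in either genotype (edgeR), and with the mouse as a block 1 in Opa1fl/fl, Pptc7, named after its value was seen. Hif1a, the hypoxia factor, was at 0.33 in Wt (adjusted p = 0.0685) and 0.06 in Opa1fl/fl.

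The enzymes that process and attach ATG8 proteins gave 3 calls of 11 in each genotype. In Wt all 3 were higher in DN4: Atg16l2 at 0.82 (adjusted p = 0.0231), Atg4d, an ATG8 protease, at 0.63 (adjusted p = 0.0055) and its relative Atg4a at 0.52 (adjusted p = 0.0363). In Opa1fl/fl Atg16l2 (0.75) and Atg4d (0.52) were called again, and Atg4c fell by 1.35 (adjusted p = 0.0309); the last was named after its value was seen. The block fit called 2 in Wt, without Atg4a (adjusted p = 0.101, and 0.079 without WT40 and with no block), and 5 in Opa1fl/fl. Under the B cell covariate 0 were called in Wt, where Atg16l2 was at 0.07, Atg4d at 0.46 and Atg4a at 0.25, and 1 in Opa1fl/fl, Atg4c. Of 17 genes of autophagy initiation and nucleation, 0 were called in Wt and 1 in Opa1fl/fl, the inhibitor Rubcn (0.92, adjusted p = 0.0218), also named after its value was seen. In one fit of 13 libraries Rubcn was at 0.86 in Wt and 0.94 in Opa1fl/fl, not called (adjusted p = 0.078 and 0.081). The block fit called Rubcn in Wt as well (0.91, adjusted p = 0.041), and called 3 genes in Opa1fl/fl. Under the B cell covariate Rubcn turned to -0.57 in Wt (adjusted p = 0.522) and -0.28 in Opa1fl/fl (adjusted p = 0.786).

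Transcription factors of autophagy and lysosome genes held the largest changes. Tfeb, a master regulator of lysosome genes, was at 0.71 ± 0.35 CPM (SD, n = 3) in Wt DN3 and 22.8 ± 17.1 CPM (n = 4) in Wt DN4, a log2 fold change of 4.93 (adjusted p = 0.0029), and at 4.49 in Opa1fl/fl (adjusted p = 0.0014). It had only 2 to 10 counts in the Wt DN3 libraries and 3 to 12 in the Opa1fl/fl DN3 libraries. In DN4 it had 101 to 458 and 87 to 345 counts, through which it passed the filter. The size of its fold change is therefore uncertain. Foxo1, a forkhead factor of lymphocyte survival and homing, was at 26.6 ± 6.92 CPM in Wt DN3 and 144 ± 36.2 CPM in Wt DN4, a log2 fold change of 2.43 (adjusted p = 0.00042), and at 2.15 in Opa1fl/fl. Both are expressed in B cells too. With the B cell marker level as a covariate Tfeb was at 2.36 in Wt and 2.18 in Opa1fl/fl and Foxo1 at 1.67 and 1.45, lower than without it and still called. The covariate differs between the stages in every mouse, and the part of B cells in these values was not tested. These 2 were the Wt calls among 11 tested; Opa1fl/fl had 5 calls of 11, all higher, the others being Arnt, Foxo4 and Epas1, named after their values were seen. Epas1 had 0 to 1 counts in the Opa1fl/fl DN3 libraries and 16 to 57 in DN4. Arnt and Foxo4 lost their calls under the B cell covariate (adjusted p = 0.540 and 0.099), and Epas1 kept its call. Foxo3, known as a driver of Bnip3 and of ATG8 genes in muscle, was at -0.20 in Wt and -0.11 in Opa1fl/fl, neither called.

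Hypoxia-responsive genes, the group to which Bnip3 belongs, split. In Wt 8 of 19 were called, 4 higher and 4 lower in DN4, with a median of -0.08. P4ha2 (2.00), Ddit4 (1.74) and Ankrd37 (1.40) were higher, and Vegfa (-1.95), Ndrg1 (-1.41) and Ak4 (-1.39) lower. P4ha2 had only 3 to 6 counts in the Wt DN3 libraries and 21 to 37 in Wt DN4, through which it passed the filter. In Opa1fl/fl 6 of 19 were called, 2 higher and 4 lower, with a median of -0.05. P4ha2 had 1 to 3 counts in the Opa1fl/fl DN3 libraries and 21 to 38 in DN4, while Vegfa (-1.83) and Ndrg1 (-1.44) fell. The block fit called 7 in Wt and 11 in Opa1fl/fl. Under the B cell covariate 1 was called in Wt, Ndrg1 (-1.02), and 3 in Opa1fl/fl, Car9, Ndrg1 (-1.06) and P4ha2 (2.88). Other Wt values under it, not called, were 1.54 for P4ha2, 1.19 for Ddit4, 0.58 for Ankrd37, -1.34 for Vegfa and -0.59 for Ak4, and Vegfa was at -1.25 in Opa1fl/fl. Of 19 lysosomal genes, 6 were called in Wt, 4 higher and 2 lower. Ctsl (0.75) and Atp6ap1 (0.70) were among those that rose, and Gaa (-0.79) and Npc1 (-0.71) fell. In Opa1fl/fl 3 were called, 2 higher, Ctsl (0.96) among them, and 1 lower, Gaa (-0.69). The block fit called 4 in Wt, Ctsl being lost (adjusted p = 0.059, and 0.098 without WT40 and with no block), and 8 in Opa1fl/fl. Under the B cell covariate 0 were called in Wt, where Atp6ap1 was at 0.03, Ctsl at 1.14, Gaa at -0.97 and Npc1 at -0.77. In Opa1fl/fl it left 1 call, Ctsl (1.36), with Gaa at -0.85.

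Of genes of cell stress and apoptosis in dissociated tissue, 3 of 6 tested (Ier2, Junb and Egr1) were higher in DN4 in each genotype, beside 13.4% of all genes called higher in Wt and 11.2% in Opa1fl/fl. The part of this in the stage values above was not tested.

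The genes whose pattern over the 13 libraries lay closest to each of the 8 detected genes were found by the root mean square difference of centred log2 levels, over 13361 genes, as a description. Fundc1 had the smallest differences, to Ppp2cb (0.0690), Pdha1 (0.0692) and Skp1a (0.0705), against its own spread of 0.151, also the smallest of the 8. The differences are not scaled by that spread, which was 0.223 for Sqstm1, 0.201 for Bnip3l and 0.252 for Map1lc3b. Sqstm1 lay closest to Ctps2 (0.0728), Tspan14 and Vhl, and Bnip3l to Cript (0.0735), Mat2b and Leprotl1. Map1lc3b lay closest to Rab5b (0.0898), Gba2 and Sash3. Pink1 lay closest to Flot1 (0.148), Ctsd and Eci2, and Gabarapl1 to Lta4h (0.157), Fuom and Tmed3, against its own spread of 0.426. Bnip3, at low counts, lay closest to Zfp882 (0.224), Rrm2b and Rmi1, and Optn to Ccrl2 (0.356), Gm6904 and Parp3. None of the 8 had another of the 9 genes among its 3 closest.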

How the data were processed

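RNA of 13 libraries of sorted DN3 and DN4 thymocytes was sequenced by the authors from stranded mRNA libraries. Cutadapt was used for trimming and STAR for mapping to mm10, and the authors made the deposited counts per gene with featureCounts; the values are whole read counts, not normalised. The annotation and the strand setting of the counting are not given in the sources used here. All 13 columns were joined to mice by their names, and 0 columns were left unused. Gene names and positions come from GENCODE M21 on GRCm38, where 47310 of 47937 identifiers matched without their version and 39192 with it. Promoters come from RefSeq. Marchf5 and Trgc1 were not found by symbol.

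Genes were filtered with filterByExpr (minimum count 10), libraries were scaled by TMM, and only the groups compared entered a fit. The test was edgeR's quasi-likelihood test (version 4.0.16, R 4.3.3), with Benjamini-Hochberg adjustment over all genes tested and a threshold of 0.05. The interaction used all 13 libraries. The standard error is the log2 fold change over the square root of F. CPM levels use library sizes scaled by TMM. In a library of 10023044 counts, the median, a gene at 1 CPM has about 10 counts; floors of 3 counts cover counting error only. Libraries of a group came from different mice. No libraries of a group were duplicates (lowest chi-squared over its degrees of freedom, 5.83).

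DN3 and DN4 libraries with the same mouse number come from the same animal. Their deviations from the group means correlated at 0.495, 0.226 and 0.366 for KO45, KO49 and KO51 and at 0.164, 0.123 and 0.185 for WT05, WT46 and WT48, over 13361 genes. The mouse as a block was fitted as an alternative, on the mice with both stages, so WT40 did not enter it.

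The other alternatives were DESeq2's size factors, library totals, a filter of 1 count in any library, 10 counts in every library, DESeq2 1.42.0, all 13 libraries in one fit, and each library left out. Leaving out the 13 ribosomal RNA-like genes and the B cell marker level (log2 of the summed CPM of 7 genes) as a covariate in the fit of all 13 libraries were added after the data were seen. The genes and lists were chosen with earlier results of these data known. Named were the 9 genes, up to 3 called genes higher and 3 lower of each list in Wt between the stages, and the 3 closest genes to each; results for a few single genes are not reported here. The script was tested on simulated data.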

Additional observations from a re-analysis of the deposited data

How the results depend on the processing

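Of 593 values of these genes under other settings, 531 kept their direction and their side of the threshold, 53 changed sign, 8 gained a call and 1 lost it. Between the stages in Wt, the 0 genes called became 3 with DESeq2's Wald test, 2 with all 13 libraries in one fit, 1 with the mouse as a replicate block (which in Wt and in the interaction also leaves out WT40), and 0 to 1 when a library was left out (1 without the DN3 library of WT05). In Opa1fl/fl the 1 gene called became 2 with the replicate block and 0 with the B cell marker level as a covariate in a fit of all 13 libraries, which without it called 1; Gabarapl1 stayed called with each library left out, at -0.99 to -0.84. The replicate block changed no other call of these genes. The pathway genes called in Wt, 22, became 11 with library totals, 3 with the B cell covariate (26 in the same fit of 13 libraries without it) and 10 to 25 with a library left out (10 without WT48 DN3, 13 without WT46 DN3 or WT05 DN4). In Opa1fl/fl the 20 became 45 with the replicate block, 8 with the B cell covariate (22 without it) and 9 to 18 with a library left out (9 without KO49 or KO51 DN3, 12 without KO49 DN4). Library totals moved the median log2 fold change of all genes from -0.01 to 0.23 between the genotypes in DN3, from -0.03 to 0.16 between the stages in Wt and from -0.02 to -0.20 in the interaction.

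Values of these genes and of those named around them changed sign as follows. Under the B cell covariate, in Wt, Tomm70a was at 0.023, Bnip3 was at -0.31, Sqstm1 at -0.098, Optn at -0.23, Gabarap at -0.027 and Rubcn at -0.57, and in Opa1fl/fl Bnip3 was at -0.54, Sqstm1 at -0.26, Ankrd37 at -0.11, Atp6ap1 at -0.011, Gabarap at -0.15 and Rubcn at -0.28; the covariate itself differs between the stages in every mouse. In DN4 between the genotypes Map1lc3b was at -0.0027 with the 1-count filter, -0.019 in one fit of 13 libraries and -0.0064 without ribosomal RNA-like genes. Fundc1 between the Wt stages was at 0.011 with library totals, and the interaction of Pink1 at 0.0032 with the replicate block.

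With a library left out, the genotype difference in DN3 ran over -0.26 to 0.19 for Bnip3, -0.052 to 0.067 for Bnip3l, -0.020 to 0.059 for Fundc1, -0.18 to 0.22 for Gabarapl1, -0.10 to 0.14 for Map1lc3b, -0.077 to 0.41 for Pink1 and -0.087 to 0.18 for Sqstm1. In DN4 it ran over -0.49 to 0.10 for Bnip3, -0.16 to 0.027 for Fundc1, -0.15 to 0.11 for Map1lc3b and -0.17 to 0.013 for Sqstm1, and, without a change of sign, over -1.27 to -0.13 for Optn, 0.017 to 0.31 for Pink1, -0.29 to -0.092 for Bnip3l and -0.22 to -0.075 for Gabarapl1. The interaction ran over -0.57 to 0.059 for Bnip3, -0.42 to 0.022 for Gabarapl1, -0.19 to 0.096 for Map1lc3b, -1.09 to 0.48 for Optn and -0.24 to 0.24 for Pink1. The stage change ran over -0.089 to 0.30 for Pink1 in Wt, and in Opa1fl/fl over -0.089 to 0.52 for Bnip3, -0.0030 to 0.19 for Bnip3l and -0.15 to 0.32 for Pink1. The causes were not tested. Bnip3 and Optn rest on the fewest counts of the 8 genes detected, 645 and 176 over the 13 libraries.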
